A study of Mus musculus with 9 samples.

Results

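The genes of cholesterol and fatty acid synthesis described here are 31 rows of an expression table of 24421 genes, chosen by name as genes of sterol synthesis, of fatty acid synthesis and of the SREBP system that controls both. They were followed through 9 RNA sequencing libraries of colon epithelium sorted from adult female C57BL/6J mice that carried no transgene and received no treatment. The goblet-enriched cells (Epcam+, Cd44+, Kit+) came from the crypt bottom, the enterocyte-enriched cells (Epcam+, Cd44-negative, high in Cd66a, the product of Ceacam1) from the crypt top, and the Lgr5-enriched cells (Epcam+, Cd44+, Kit-negative), which include the stem cells, again from the crypt bottom. Each population has 3 libraries, and the series text names 3 independent mice. The design asks how the 3 populations differ. Levels are in TPM, transcripts per 1000000, which corrects for transcript length, and the values of a population are given for replicates 1, 2 and 3 in that order.

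Cholesterol is built from acetyl-CoA through mevalonate, isoprenoid diphosphates, squalene and lanosterol, and fatty acids are built from the same acetyl-CoA through malonyl-CoA. SREBP transcription factors are held in the endoplasmic reticulum with the escort protein Scap. When membrane sterol is low, Scap carries them to the Golgi, where they are cut and released to the nucleus, and when sterol is high, Insig proteins retain Scap. SREBP-2, from Srebf2, is known mainly for sterol synthesis genes and SREBP-1, from Srebf1, for fatty acid genes, and the intestinal epithelium is a known site of sterol synthesis.

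SREBPs bind sterol regulatory elements and E-boxes, usually beside CCAAT boxes bound by NF-Y, so the promoter stretches of 4 members are shown: 3 that were higher in goblet-enriched libraries and Elovl6, which was higher in enterocyte-enriched libraries. They are read 5′ to 3′ on the gene's strand from RefSeq (GRCm38.p6), all on the plus strand, and hold no exon of the gene in the GENCODE annotation. Capitals mark the letters TCACNCCAC (sterol regulatory element), CACGTG (E-box) and CCAAT, in either orientation. Hmgcs1 is at chr13:119690211-119690350, Insig1 at chr5:28071223-28071362, Lss at chr10:76531448-76531587 and Elovl6 at chr3:129532215-129532354. The Elovl6 stretch held none of the marked letters. The 4 were picked by their differences and are examples only, so they do not compare populations.
Hmgcs1: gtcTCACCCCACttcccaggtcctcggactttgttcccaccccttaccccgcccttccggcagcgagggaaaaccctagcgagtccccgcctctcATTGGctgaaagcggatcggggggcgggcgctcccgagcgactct
Insig1: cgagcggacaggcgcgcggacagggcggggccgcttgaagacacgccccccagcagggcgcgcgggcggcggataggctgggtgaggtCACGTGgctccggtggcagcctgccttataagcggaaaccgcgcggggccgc
Lss: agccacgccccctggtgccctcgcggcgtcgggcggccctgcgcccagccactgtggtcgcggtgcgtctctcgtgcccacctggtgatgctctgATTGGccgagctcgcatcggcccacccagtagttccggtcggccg
Elovl6: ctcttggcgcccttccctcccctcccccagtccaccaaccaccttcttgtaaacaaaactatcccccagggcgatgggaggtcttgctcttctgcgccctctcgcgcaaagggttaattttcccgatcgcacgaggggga

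The RefSeq table held promoters for 25 of the 31 members, and the 250 bases before each listed start were searched on both strands. Of 20 members with 1 listed start, 11 had a GENCODE exon of the gene within the searched bases. The search was therefore not confined to bases before every annotated start. No match of 1 motif overlapped a match of another in a member. The strict sterol element TCACNCCAC was present in 1 member, Hmgcs1, as TCACCCCAC from 137 to 129 bases before the start, a share of 4.0% against 1.23% of 9643 tested genes with a promoter. With at most 1 letter allowed to differ, 11 members (44.0%) held it, against 25.5% of those genes. The E-box was found in Dhcr7, Hsd17b7, Insig1, Sc5d and Scap, which is 20.0% of members against 9.89% of the tested genes. CCAAT was present in 20 members (80%) against 40.6%, and the GC box GGGCGG, the letters bound by Sp1, in 21 members (84.0%) against 63.2%. By step of the pathway, CCAAT was found in 5 of 6 genes of the mevalonate steps, 9 of 9 genes of the squalene and ring steps, 4 of 5 SREBP regulators and 2 of 5 fatty acid genes. Members called in no comparison on the TPM scale, such as Mvk, Nsdhl and Hsd17b7, were among those with CCAAT. A match is a description of letters and not a binding site, and the members were not drawn at random from the tested genes.

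Depth ran from 11.2 to 26.8 M reads (M, 1000000), and every member had at least 277 reads in every library. The sorted antigens followed the gates in direction: Kit stood at 168 to 249 TPM in goblet-enriched, 18.1 to 29.1 TPM in enterocyte-enriched and 4.05 to 11.6 TPM in Lgr5-enriched libraries. Cd44 stood at 20.7 to 31.9 TPM in goblet-enriched, 1.28 to 2.76 TPM in enterocyte-enriched and 49.6 to 89.3 TPM in Lgr5-enriched libraries. Ceacam1 separated the populations less, with 1380 to 2281, 2390 to 3287 and 1265 to 1418 TPM in the same order. The 9 goblet markers summed to 45630 to 62390 TPM in goblet-enriched, 14530 to 22780 TPM in enterocyte-enriched and 1502 to 1666 TPM in Lgr5-enriched libraries. The enterocyte-enriched libraries thus also held goblet transcripts. Muc2, Spink4, Agr2, Atoh1 and Spdef were higher in every goblet-enriched than in every enterocyte-enriched library, and Fcgbp and Clca1 overlapped. Zg16 and Tff3 went the other way, with means of 345 and 1120 TPM in goblet-enriched and 5481 and 1918 TPM in enterocyte-enriched libraries. The 8 colonocyte markers in the table summed to 12.1 to 202, 3564 to 11440 and 93.3 to 276 TPM in the goblet-enriched, enterocyte-enriched and Lgr5-enriched libraries, and the highest goblet-enriched value was that of replicate 3. The 7 markers of Lgr5 crypt base cells summed to 402 to 557 TPM in goblet-enriched, 90.9 to 193 TPM in enterocyte-enriched and 951 to 1077 TPM in Lgr5-enriched libraries. The 7 enteroendocrine markers summed to 13.1 to 79.5 TPM in goblet-enriched, 149 to 239 TPM in enterocyte-enriched and 157 to 297 TPM in Lgr5-enriched libraries, and the 6 tuft cell markers to 7.94 to 52.8 TPM in goblet-enriched, 3.10 to 7.10 TPM in enterocyte-enriched and 1.98 to 5.85 TPM in Lgr5-enriched libraries. The 7 leukocyte markers summed to 251 and 147 TPM in enterocyte-enriched replicates 1 and 2 and to at most 27.2 TPM elsewhere. Lyz2 made up most of these sums, with 232 and 133 TPM. The sort gated out Cd45+ cells, and Ptprc, the Cd45 gene, stood at 0.0734 and 0.153 TPM in those libraries. The 7 stromal and endothelial markers summed to at most 8.78 TPM. The part of these mixtures in the results was not tested, and in sorted bulk RNA fewer cells of a type and less RNA per cell cannot be told apart. Adipoq, Plin1 and Lep, which define adipocytes, were at 0 in every library, and the 8 adipocyte markers summed to at most 25.1 TPM. Enterocyte-enriched replicate 1 goes against its female label: Xist, from the inactive X chromosome, stood at 0.128 TPM there and at 110 to 204 TPM elsewhere, and 4 Y-linked genes summed to 139 TPM there and to at most 0.325 TPM elsewhere. Lgr5-enriched replicate 1 held the most ribosomal precursor RNA (Rn45s, 49050 TPM there and at most 6009 TPM elsewhere). Counts of members called are therefore also given without each of these libraries.

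All 31 members were tested among 12888 genes by limma on log2(TPM + 1), and a gene was called at an adjusted p below 0.05. The 3 comparisons share libraries, so their calls are given side by side and are not independent of each other. Of 18 sterol synthesis genes, 8 were higher in goblet-enriched than in Lgr5-enriched cells and none was lower. Hmgcs1, Msmo1 and Insig1, the brake on SREBP release, had the largest log2 fold changes, while the fatty acid genes Acss2, Acaca and Scd2 were lower. In that comparison 12 members were called, where 34.3% of all tested genes were called. Of these, 9 were higher, where 10.7% of tested genes were higher, and 3 were lower, where 23.6% were lower. The median log2 fold change was 0.17 over the members and -0.26 over all tested genes.

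Enterocyte-enriched cells were above Lgr5-enriched cells in Msmo1, Sqle, Ebp and Elovl6 and below them in Acat2. Here 9 members were called, where 49.6% of tested genes were called. There were 7 higher members, against 12.0% of tested genes, and 2 lower members, against 37.6% of tested genes. The median log2 fold change was 0.06 over the members and -0.35 over all genes. The largest differences between goblet-enriched and enterocyte-enriched cells were higher Insig1, Lss and Idi1 and lower Elovl6 and Scd2. This comparison called 10 members, where 44.1% of tested genes were called, with 7 higher (28.2% of tested genes) and 3 lower (15.9%), and medians of 0.15 over the members and 0.20 over all genes. A test for any difference among the 3 populations passed for 16 members, where it passed for 63.1% of tested genes. Counted by libraries that do not overlap, all goblet-enriched values were above all Lgr5-enriched values in 11 members (14.1% of tested genes) and below them in 4 (33.9%). Enterocyte-enriched values were all above Lgr5-enriched values in 8 members (16.2% of tested genes) and all below in 2 (45.6%), and goblet-enriched values were all above enterocyte-enriched values in 8 (36.0%) and all below in 5 (20.4%).

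**Figure D1:**
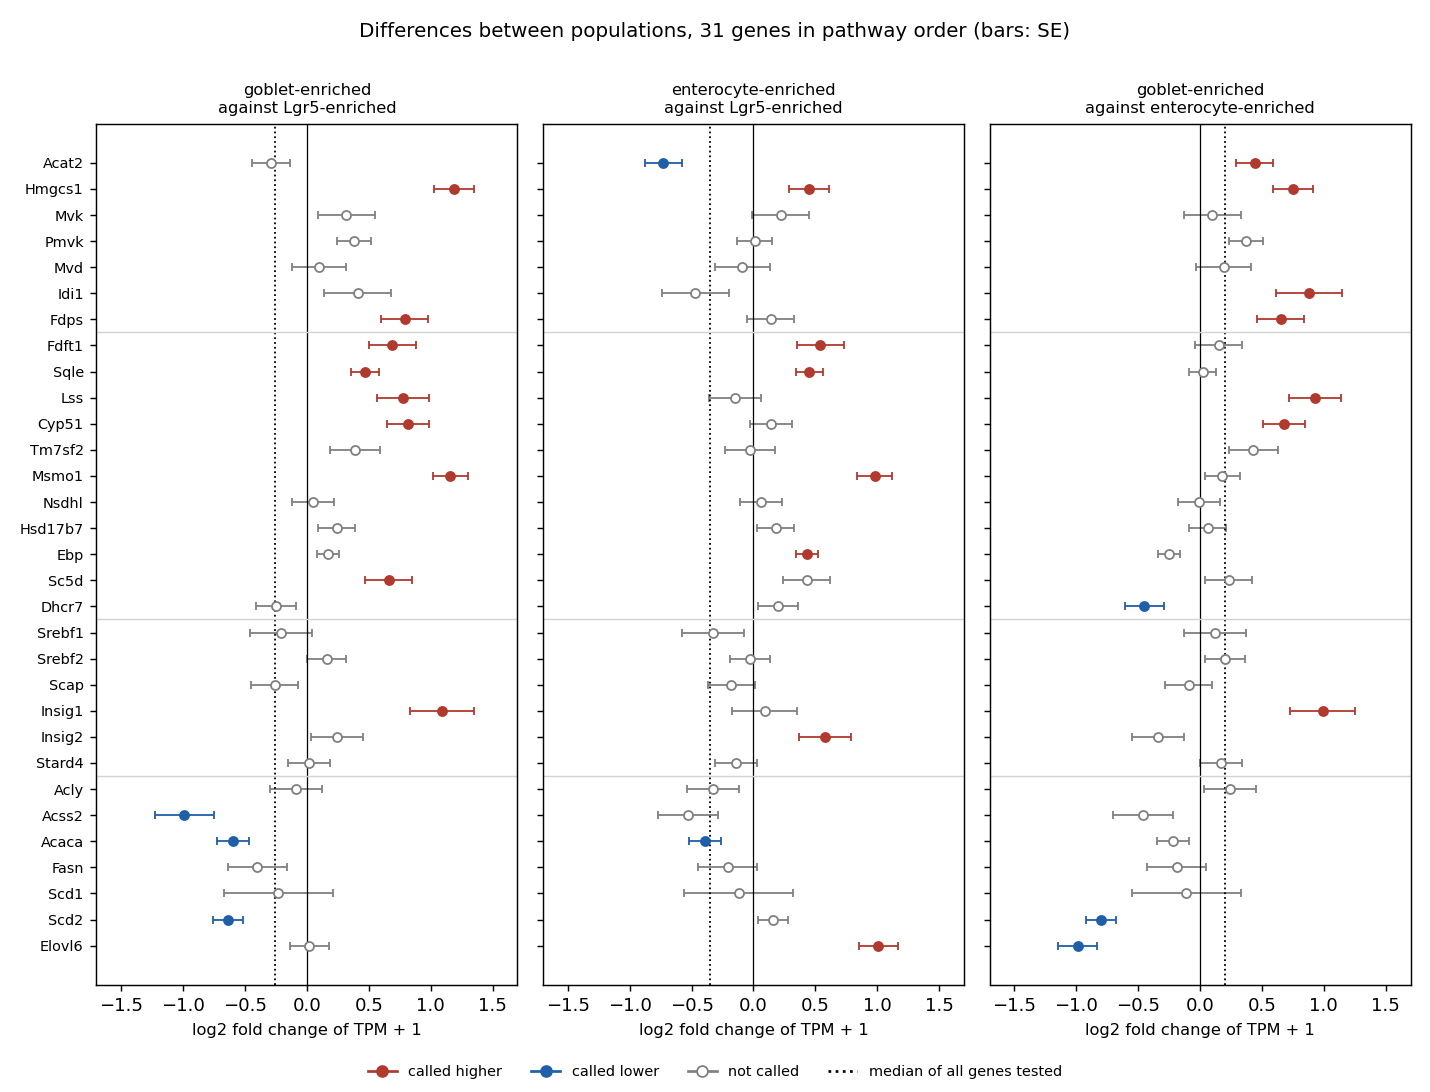
Log2 fold change of TPM + 1 (x axis) for the 31 genes in pathway order (y axis), in 3 panels: left, goblet-enriched over Lgr5-enriched; middle, enterocyte-enriched over Lgr5-enriched; right, goblet-enriched over enterocyte-enriched. Points are limma estimates with SE bars, filled red where called higher, filled blue where called lower and open where not called, and the dotted line is the median of all genes tested (-0.26, -0.35 and 0.20). Most sterol genes lie right of that line in the first panel, and Acss2, Acaca and Scd2 lie left of 0.

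TPM sets the same total in every library, and the medians over all genes above are partly set by that scaling. With median-of-ratios scaling the medians over all genes became -0.05 for goblet-enriched and 0.02 for enterocyte-enriched cells against Lgr5-enriched cells, and 0.04 for goblet-enriched against enterocyte-enriched cells. Against Lgr5-enriched cells, 54.3% of the called genes were then higher in goblet-enriched cells, where the TPM scale gave 31.3%, and 54.5% were higher in enterocyte-enriched cells, where the TPM scale gave 24.2%. Between goblet-enriched and enterocyte-enriched cells the share was 48.1%, where the TPM scale gave 63.9%. Under it 14 members were higher and 3 lower in goblet-enriched cells against Lgr5-enriched cells, and 15 were higher and 0 lower in enterocyte-enriched cells. Against enterocyte-enriched cells, 4 members were higher and 6 lower in goblet-enriched cells. Without enterocyte-enriched replicate 1, 5 members were higher and 1 lower against Lgr5-enriched, and in goblet-enriched against the remaining enterocyte-enriched libraries 4 were higher and 2 lower. Without Lgr5-enriched replicate 1, goblet-enriched libraries had 7 higher and 3 lower members and enterocyte-enriched libraries 4 higher and 3 lower members.

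The first reactions join acetyl-CoA units and make mevalonate. Acat2, the cytosolic thiolase that makes acetoacetyl-CoA, had 80.7, 73.8 and 80.7 TPM in goblet-enriched, 51.4, 55.6 and 66.5 TPM in enterocyte-enriched and 114, 84.2 and 91.5 TPM in Lgr5-enriched libraries. It is the gene of these steps with its highest mean in Lgr5-enriched cells, and the 3 populations did not overlap. It was lower in enterocyte-enriched than in Lgr5-enriched cells (log2 fold change -0.73 ± 0.15 SE, adjusted p = 0.00347), although not with median-of-ratios scaling (adjusted p = 0.134). Goblet-enriched cells were not called against Lgr5-enriched cells (-0.29 ± 0.15, adjusted p = 0.161) and were higher than enterocyte-enriched cells (0.44 ± 0.15, adjusted p = 0.0372). That last call was lost without goblet-enriched replicate 1, 2 or 3, enterocyte-enriched replicate 1 or 2, or Lgr5-enriched replicate 3 (adjusted p 0.0559 to 0.115). It was also lost with median-of-ratios scaling (0.25, adjusted p = 0.230), quantile normalization (adjusted p = 0.0744) and limma-voom (adjusted p = 0.0769).

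Hmgcs1, the cytosolic HMG-CoA synthase, had 729, 563 and 594 TPM in goblet-enriched, 354, 324 and 451 TPM in enterocyte-enriched and 250, 270 and 300 TPM in Lgr5-enriched libraries. The populations kept this order with no overlap, and the ratio of mean TPM was 2.30 for goblet-enriched over Lgr5-enriched and 1.67 for goblet-enriched over enterocyte-enriched libraries. The log2 fold changes were 1.19 ± 0.16 against Lgr5-enriched cells (adjusted p = 0.000800) and 0.75 ± 0.16 against enterocyte-enriched cells (adjusted p = 0.00564), and both calls held under all 18 alternatives. The smaller difference of enterocyte-enriched against Lgr5-enriched cells (0.45 ± 0.16, adjusted p = 0.0438) was lost without goblet-enriched replicate 2 or 3, enterocyte-enriched replicate 1 or 3, or any of the 3 Lgr5-enriched replicates (adjusted p 0.0542 to 0.151).

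The kinases and the decarboxylase of the mevalonate route moved less. Mvk, mevalonate kinase, averaged 72.7 ± 19.0, 66.5 ± 9.32 and 57.4 ± 12.7 TPM in goblet-enriched, enterocyte-enriched and Lgr5-enriched libraries (SD, n = 3 each). Mvd, the diphosphomevalonate decarboxylase, averaged 117 ± 30.7, 101 ± 21 and 107 ± 14.5 TPM in the same order. Both overlapped between all populations and were called in none of the comparisons. Pmvk, phosphomevalonate kinase, had 107, 101 and 112 TPM in goblet-enriched, 69.2, 84.6 and 94.1 TPM in enterocyte-enriched and 80.4, 74.9 and 89.9 TPM in Lgr5-enriched libraries. Every goblet-enriched value was above all others, yet the differences missed the threshold (0.38 ± 0.14, adjusted p = 0.0585 against Lgr5-enriched cells and 0.37 ± 0.14, adjusted p = 0.0523 against enterocyte-enriched cells). With the replicate number as a block they passed it (adjusted p = 0.0216 and 0.0199).

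Idi1, the isomerase of the 5-carbon building blocks, had 210, 119 and 142 TPM in goblet-enriched, 68.1, 80.8 and 102 TPM in enterocyte-enriched and 160, 89.6 and 104 TPM in Lgr5-enriched libraries. Replicate 1 was the highest in goblet-enriched and Lgr5-enriched cells and the lowest in enterocyte-enriched cells. Goblet-enriched cells were above enterocyte-enriched cells (0.88 ± 0.27, adjusted p = 0.0263) with no overlap, and the call was lost without goblet-enriched replicate 1 or 3 or enterocyte-enriched replicate 1 or 2 (adjusted p 0.0512 to 0.0884) and with median-of-ratios scaling (adjusted p = 0.0809). Fdps, which makes farnesyl diphosphate, had 423, 339 and 446 TPM in goblet-enriched, 246, 221 and 303 TPM in enterocyte-enriched and 285, 191 and 226 TPM in Lgr5-enriched libraries. All goblet-enriched values exceeded the rest, while the other populations overlapped. Its log2 fold change against Lgr5-enriched cells was 0.79 ± 0.19 (adjusted p = 0.0117), a call that held under all alternatives. Against enterocyte-enriched cells it was 0.65 ± 0.19 (adjusted p = 0.0201), and that call was lost without goblet-enriched replicate 1 or 3 or enterocyte-enriched replicate 1 or 2 (adjusted p 0.0533 to 0.0719) and with median-of-ratios scaling (adjusted p = 0.0993).

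**Figure D2:**
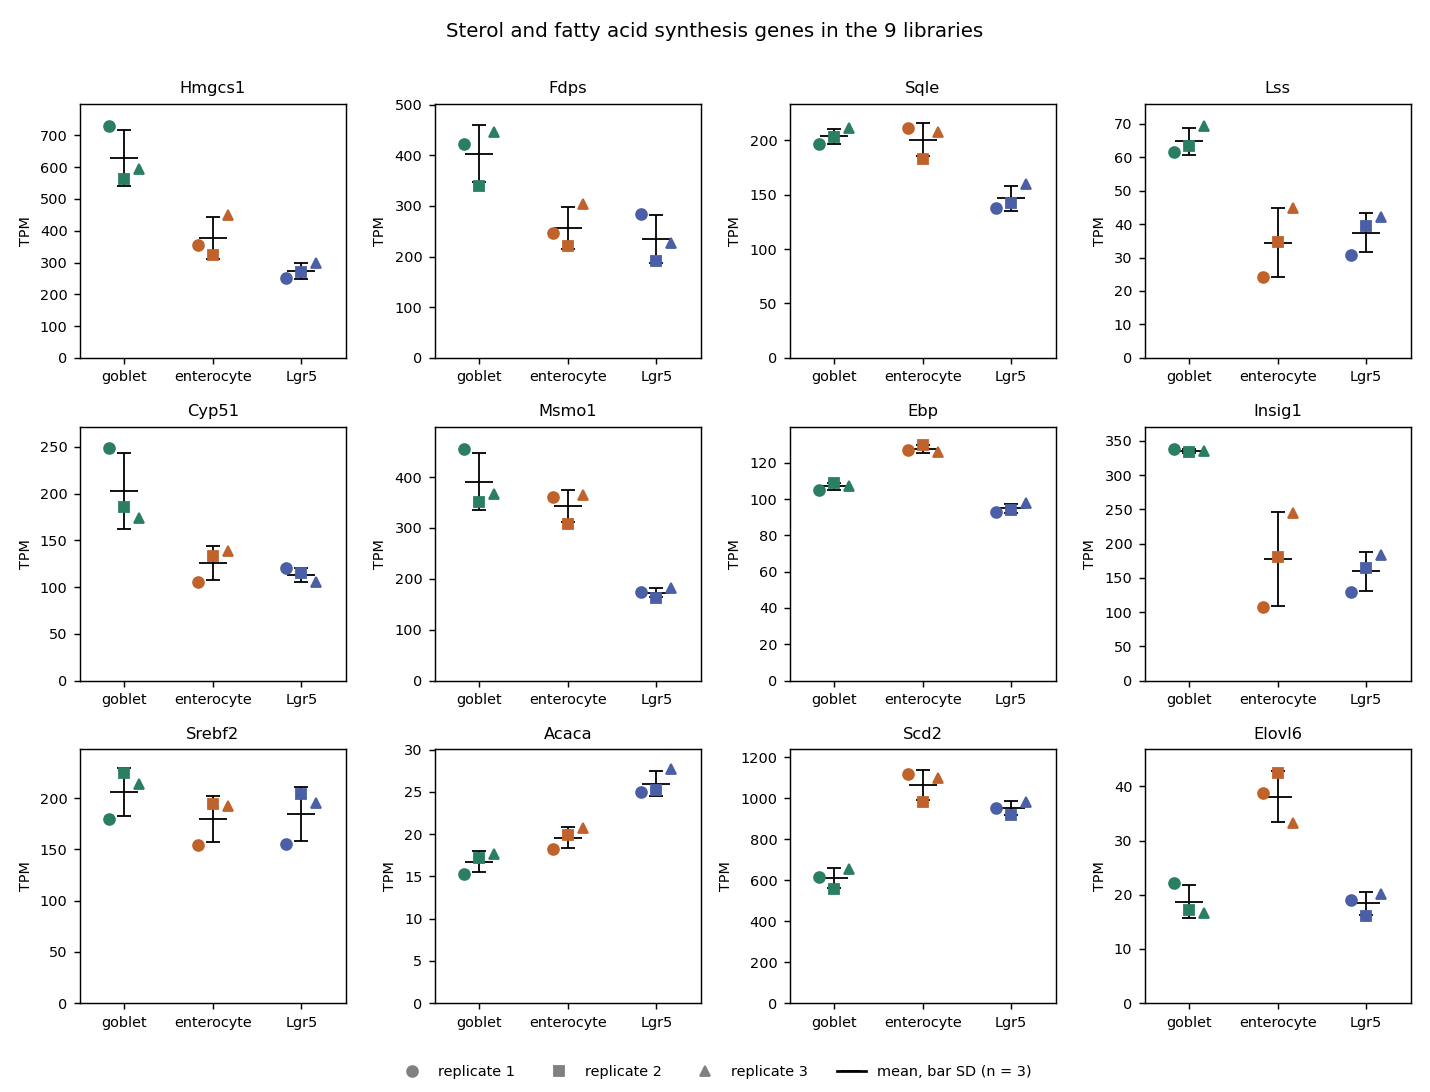
TPM (y axes, from 0) of 12 genes in the goblet-enriched, enterocyte-enriched and Lgr5-enriched libraries (x axes). Circles, squares and triangles are replicates 1, 2 and 3, and the bars are the mean with the SD (n = 3). Hmgcs1, Fdps, Lss, Cyp51 and Insig1 have all 3 goblet-enriched values above all others, Ebp and Elovl6 have all 3 enterocyte-enriched values above all others, and Acaca has its highest values in Lgr5-enriched libraries.

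From squalene to cholesterol, 6 of 11 genes were higher in goblet-enriched than in Lgr5-enriched cells and none was lower, where 10.7% of tested genes were higher and 23.6% lower. Fdft1, squalene synthase, had 133, 164 and 161 TPM in goblet-enriched, 107, 153 and 159 TPM in enterocyte-enriched and 75.5, 103 and 106 TPM in Lgr5-enriched libraries, so Lgr5-enriched cells were lowest without overlap. The log2 fold change against Lgr5-enriched cells was 0.69 ± 0.19 for goblet-enriched cells (adjusted p = 0.0235) and 0.54 ± 0.19 for enterocyte-enriched cells (adjusted p = 0.0417). Without goblet-enriched replicate 2 or 3 or Lgr5-enriched replicate 1 the goblet-enriched call was lost (adjusted p 0.0632 to 0.0744). The enterocyte-enriched call was lost without goblet-enriched replicate 2 or 3, enterocyte-enriched replicate 2 or 3, or any Lgr5-enriched replicate (adjusted p 0.0523 to 0.134).

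Sqle, squalene epoxidase, a rate-limiting enzyme of the later pathway, had 197, 203 and 211 TPM in goblet-enriched, 211, 183 and 208 TPM in enterocyte-enriched and 138, 142 and 160 TPM in Lgr5-enriched libraries. Both other populations stood above Lgr5-enriched cells to a like extent, by 0.47 ± 0.11 in goblet-enriched cells (adjusted p = 0.0110) and 0.45 ± 0.11 in enterocyte-enriched cells (adjusted p = 0.00869), and both calls held under all alternatives. Goblet-enriched and enterocyte-enriched values overlapped (0.02 ± 0.11, adjusted p = 0.873). Msmo1, the methylsterol oxidase, had 456, 352 and 366 TPM in goblet-enriched, 360, 307 and 364 TPM in enterocyte-enriched and 174, 163 and 182 TPM in Lgr5-enriched libraries. It followed the same order as Sqle with larger differences, 1.16 ± 0.14 in goblet-enriched cells (adjusted p = 0.000349) and 0.98 ± 0.14 in enterocyte-enriched cells (adjusted p = 0.000537), and both calls held under all alternatives.

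Lss, which makes lanosterol, and Cyp51, which acts on it, were highest in goblet-enriched cells. Lss, lanosterol synthase, had 61.6, 63.2 and 69.3 TPM in goblet-enriched, 24.1, 34.5 and 44.7 TPM in enterocyte-enriched and 30.8, 39.4 and 42.0 TPM in Lgr5-enriched libraries. Its log2 fold change was 0.93 ± 0.21 against enterocyte-enriched cells (adjusted p = 0.00739), which held under all alternatives, and 0.78 ± 0.21 against Lgr5-enriched cells (adjusted p = 0.0209), which was lost without goblet-enriched replicate 2 or 3 or Lgr5-enriched replicate 1 (adjusted p 0.0525 to 0.0639). Cyp51, the lanosterol demethylase, had 249, 186 and 174 TPM in goblet-enriched, 105, 133 and 139 TPM in enterocyte-enriched and 120, 115 and 105 TPM in Lgr5-enriched libraries. The lowest goblet-enriched value exceeded every other one, and the log2 fold changes of 0.82 ± 0.17 against Lgr5-enriched cells (adjusted p = 0.00558) and 0.68 ± 0.17 against enterocyte-enriched cells (adjusted p = 0.00947) held under all alternatives. Enterocyte-enriched against Lgr5-enriched cells gave -0.15 ± 0.21 for Lss and 0.14 ± 0.17 for Cyp51, with overlapping values.

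Ebp, the sterol isomerase, was highest in enterocyte-enriched cells, with 105, 109 and 107 TPM in goblet-enriched, 127, 130 and 126 TPM in enterocyte-enriched and 93.1, 93.7 and 97.8 TPM in Lgr5-enriched libraries. Its libraries differed little within a population, and the 3 populations did not overlap. The difference of enterocyte-enriched against Lgr5-enriched cells was 0.43 ± 0.09 (adjusted p = 0.00486) and held under all alternatives, and that of goblet-enriched against enterocyte-enriched cells was -0.25 ± 0.09 (adjusted p = 0.0520, and 0.0293 with the replicate block). Sc5d, the sterol desaturase, had 160, 94.6 and 105 TPM in goblet-enriched, 107, 90.0 and 101 TPM in enterocyte-enriched and 81.3, 67.6 and 72.1 TPM in Lgr5-enriched libraries, with replicate 1 the highest in each population. Goblet-enriched cells were higher than Lgr5-enriched cells (0.66 ± 0.19, adjusted p = 0.0261), a call lost without Lgr5-enriched replicate 2 (adjusted p = 0.0781) or 3 (adjusted p = 0.0784). Enterocyte-enriched cells stood 0.43 ± 0.19 above Lgr5-enriched cells (adjusted p = 0.0896, and 0.0195 with the replicate block), again without overlap.

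Dhcr7, the reductase of the last step to cholesterol, went the other way in goblet-enriched cells. It had 105, 116 and 124 TPM in goblet-enriched, 144, 150 and 179 TPM in enterocyte-enriched and 112, 141 and 161 TPM in Lgr5-enriched libraries. Goblet-enriched cells were below enterocyte-enriched cells without overlap (-0.45 ± 0.16, adjusted p = 0.0416), and the call was lost without any 1 of the goblet-enriched or enterocyte-enriched libraries or without Lgr5-enriched replicate 2 (adjusted p 0.0518 to 0.135). The ratio of Dhcr7 to Lss was 1.71 to 1.83 in goblet-enriched, 4.01 to 5.98 in enterocyte-enriched and 3.58 to 3.84 in Lgr5-enriched libraries. It sets 2 genes with opposite differences against each other, so it restates their values and is no separate result. Tm7sf2, a sterol reductase of the ring, averaged 68.1 ± 15, 50.2 ± 9.53 and 51.0 ± 6.03 TPM in goblet-enriched, enterocyte-enriched and Lgr5-enriched libraries (SD, n = 3 each). It was not called, but with the replicate block goblet-enriched cells were higher than Lgr5-enriched cells (adjusted p = 0.0156) and than enterocyte-enriched cells (adjusted p = 0.00924). Nsdhl and Hsd17b7, which remove methyl groups from the ring with Msmo1, were not called on the TPM scale. Nsdhl averaged 78.2 ± 15.5, 78.0 ± 4.76 and 75.4 ± 13.9 TPM in goblet-enriched, enterocyte-enriched and Lgr5-enriched libraries (SD, n = 3 each). Hsd17b7 averaged 27.6 ± 1.69, 26.7 ± 4.17 and 23.3 ± 2.38 TPM in the same order. With median-of-ratios scaling Hsd17b7 was higher in goblet-enriched (0.45, adjusted p = 0.029) and enterocyte-enriched cells (0.58, adjusted p = 0.00609) than in Lgr5-enriched cells. Quantile normalization gave 0.48 (adjusted p = 0.021) and 0.57 (adjusted p = 0.00659).

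Of the 6 regulator and carrier genes, 1 was higher and 0 were lower in goblet-enriched than in Lgr5-enriched cells, where 10.7% of tested genes were higher and 23.6% lower. Against enterocyte-enriched cells 1 was higher and 0 were lower as well (28.2% and 15.9% of tested genes). Counts this small do not set the list apart from all tested genes. Insig1, an SREBP target whose protein retains Scap and so limits the pathway, had 338, 333 and 335 TPM in goblet-enriched, 108, 180 and 245 TPM in enterocyte-enriched and 129, 165 and 184 TPM in Lgr5-enriched libraries. The goblet-enriched libraries were nearly equal and above all others, while the enterocyte-enriched libraries spread widely. Insig1 was higher in goblet-enriched than in Lgr5-enriched cells (1.09 ± 0.26, adjusted p = 0.0130) and than in enterocyte-enriched cells (0.99 ± 0.26, adjusted p = 0.0144), and both calls held under all alternatives. Enterocyte-enriched against Lgr5-enriched cells gave 0.09 ± 0.26 (adjusted p = 0.787).

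Its relative Insig2, which also retains Scap but is not a typical SREBP target, was expressed at lower levels, with 29.9, 18.7 and 23.3 TPM in goblet-enriched, 39.5, 26.5 and 26.0 TPM in enterocyte-enriched and 20.6, 19.3 and 19.7 TPM in Lgr5-enriched libraries. Enterocyte-enriched cells were above Lgr5-enriched cells (0.58 ± 0.21, adjusted p = 0.0443), but the call was lost without goblet-enriched replicate 3, enterocyte-enriched replicate 1 or 2, or any Lgr5-enriched replicate (adjusted p 0.0534 to 0.147). The ratio of Insig1 to Insig2 was 11.3, 17.8 and 14.4 in goblet-enriched, 2.72, 6.79 and 9.40 in enterocyte-enriched and 6.26, 8.51 and 9.34 in Lgr5-enriched libraries, so all goblet-enriched ratios were above the others. This order follows from the values of both genes and is no separate result.

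The transcripts of the SREBPs themselves were not called in any comparison. Srebf2 had 180, 225 and 214 TPM in goblet-enriched, 154, 194 and 192 TPM in enterocyte-enriched and 155, 204 and 195 TPM in Lgr5-enriched libraries, all overlapping. Its log2 fold change against Lgr5-enriched cells was 0.16 ± 0.16 in goblet-enriched cells (adjusted p = 0.435) and -0.03 ± 0.16 in enterocyte-enriched cells (adjusted p = 0.879), and goblet-enriched stood to enterocyte-enriched cells at 0.20 ± 0.16 (adjusted p = 0.329). With median-of-ratios scaling the first 2 became 0.39 (adjusted p = 0.0492) and 0.38 (adjusted p = 0.0359). Srebf1 had 80.2, 130 and 135 TPM in goblet-enriched, 90.7, 105 and 115 TPM in enterocyte-enriched and 92.8, 148 and 159 TPM in Lgr5-enriched libraries, with replicate 1 the lowest in each population. Enterocyte-enriched against Lgr5-enriched cells gave -0.33 ± 0.25 for it (adjusted p = 0.301, and 0.0437 with the replicate block). These values are transcripts, and cleaved nuclear SREBP was not measured.

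Scap averaged 54.6 ± 10.5, 57.6 ± 6.95 and 65.8 ± 12.4 TPM in goblet-enriched, enterocyte-enriched and Lgr5-enriched libraries (SD, n = 3 each) and was not called. Stard4, a cytosolic carrier that moves cholesterol between membranes, averaged 189 ± 39.2, 167 ± 22.9 and 184 ± 18.1 TPM in the same order and was not called either.

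Of the 7 fatty acid genes, none was higher and 3 were lower in goblet-enriched than in Lgr5-enriched cells (10.7% and 23.6% of tested genes), and none was higher and 2 were lower than in enterocyte-enriched cells (28.2% and 15.9%). A count of 0 of 7 is near a share of 10.7%, and the difference from the sterol genes was not tested. Scd2, a stearoyl-CoA desaturase that makes monounsaturated fatty acids, was the member with the highest TPM in enterocyte-enriched and Lgr5-enriched cells. It had 613, 558 and 656 TPM in goblet-enriched, 1116, 979 and 1096 TPM in enterocyte-enriched and 951, 915 and 983 TPM in Lgr5-enriched libraries. Enterocyte-enriched against Lgr5-enriched cells gave 0.16 ± 0.12 (adjusted p = 0.302), and 0.57 with median-of-ratios scaling (adjusted p = 0.00834). Goblet-enriched cells were lower than Lgr5-enriched cells (-0.64 ± 0.12, adjusted p = 0.00456) and than enterocyte-enriched cells (-0.80 ± 0.12, adjusted p = 0.000968), and both calls held under all alternatives. Its paralog Scd1 averaged 43.8 ± 26.1, 42.0 ± 7.05 and 48.4 ± 21.9 TPM in goblet-enriched, enterocyte-enriched and Lgr5-enriched libraries (SD, n = 3 each), with replicate 2 the lowest in each population. The ratio of Scd2 to Scd1 ran from 8.55 in 1 goblet-enriched library to 29.5 in 1 Lgr5-enriched library, and reads shared between these like genes make their split uncertain. Against Scd2, Hmgcs1 stood at a ratio of 0.906 to 1.19 in goblet-enriched, 0.317 to 0.411 in enterocyte-enriched and 0.263 to 0.305 in Lgr5-enriched libraries. This too restates opposite differences of 2 genes.

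Elovl6, which elongates palmitate, was on the TPM scale the only fatty acid gene called higher in enterocyte-enriched cells than in both other populations. It had 22.2, 17.2 and 16.7 TPM in goblet-enriched, 38.7, 42.5 and 33.2 TPM in enterocyte-enriched and 19.0, 16.1 and 20.1 TPM in Lgr5-enriched libraries. All enterocyte-enriched values were above the others, and the log2 fold changes were 1.01 ± 0.16 in enterocyte-enriched over Lgr5-enriched cells (adjusted p = 0.00112) and -0.99 ± 0.16 in goblet-enriched over enterocyte-enriched cells (adjusted p = 0.00144). Both calls held under all alternatives. Goblet-enriched and Lgr5-enriched values overlapped (0.02 ± 0.16, adjusted p = 0.942).

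Acaca, acetyl-CoA carboxylase and the committed step to fatty acids, had 15.3, 17.2 and 17.7 TPM in goblet-enriched, 18.2, 19.9 and 20.7 TPM in enterocyte-enriched and 25.0, 25.2 and 27.7 TPM in Lgr5-enriched libraries, with no overlap between populations. Goblet-enriched cells were lower than Lgr5-enriched cells (-0.60 ± 0.13, adjusted p = 0.00747) under all alternatives. Enterocyte-enriched cells were lower by this test too (-0.39 ± 0.13, adjusted p = 0.0329), but the difference was 0.01 with median-of-ratios scaling, and the call was lost without goblet-enriched replicate 2, any enterocyte-enriched replicate, or Lgr5-enriched replicate 2 or 3 (adjusted p 0.0506 to 0.113). The ratio of Elovl6 to Acaca was 0.941 to 1.45 in goblet-enriched, 1.6 to 2.14 in enterocyte-enriched and 0.641 to 0.759 in Lgr5-enriched libraries, with no overlap. That separation follows from the values of the 2 genes and is no separate result.

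Acss2, which makes cytosolic acetyl-CoA from acetate, had 100, 153 and 121 TPM in goblet-enriched, 150, 180 and 179 TPM in enterocyte-enriched and 168, 313 and 281 TPM in Lgr5-enriched libraries. Goblet-enriched cells were lower than Lgr5-enriched cells without overlap (-0.99 ± 0.24, adjusted p = 0.0129), a call lost without Lgr5-enriched replicate 3 (adjusted p = 0.0537). Enterocyte-enriched against Lgr5-enriched cells gave -0.53 ± 0.24 (adjusted p = 0.0928, and 0.0103 with the replicate block), and goblet-enriched against enterocyte-enriched cells gave -0.46 ± 0.24 (adjusted p = 0.151, and 0.0215 with the block).

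Acly, which makes acetyl-CoA from citrate, had the highest mean TPM of the fatty acid genes after Scd2 and averaged 428 ± 35.3, 367 ± 78.4 and 462 ± 102 TPM in goblet-enriched, enterocyte-enriched and Lgr5-enriched libraries (SD, n = 3 each). Fasn, fatty acid synthase, averaged 123 ± 37.2, 136 ± 17.7 and 159 ± 27.6 TPM in the same order. Neither was called. With the replicate block Fasn was lower in goblet-enriched than in Lgr5-enriched cells (-0.40, adjusted p = 0.0286) and Acly lower in enterocyte-enriched than in Lgr5-enriched cells (-0.33, adjusted p = 0.0402).

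Summed over the 18 sterol synthesis genes, the libraries held 3326, 2855 and 3102 TPM in goblet-enriched, 2258, 2254 and 2712 TPM in enterocyte-enriched and 2011, 1877 and 2082 TPM in Lgr5-enriched cells. The 7 fatty acid genes summed to 1292, 1372 and 1428 TPM in goblet-enriched, 1762, 1799 and 1949 TPM in enterocyte-enriched and 1713, 2027 and 2013 TPM in Lgr5-enriched libraries. The sterol sums did not overlap between populations, and the fatty acid sums of goblet-enriched cells lay below all others. The ratio of these sums within a library, which no single scaling factor per library can change, was 2.58, 2.08 and 2.17 in goblet-enriched, 1.28, 1.25 and 1.39 in enterocyte-enriched and 1.17, 0.926 and 1.03 in Lgr5-enriched libraries, with no overlap. Abundant genes weigh most in such sums, Hmgcs1, Fdps and Msmo1 among the sterol genes and Scd2 and Acly among the fatty acid genes.

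**Figure D3:**
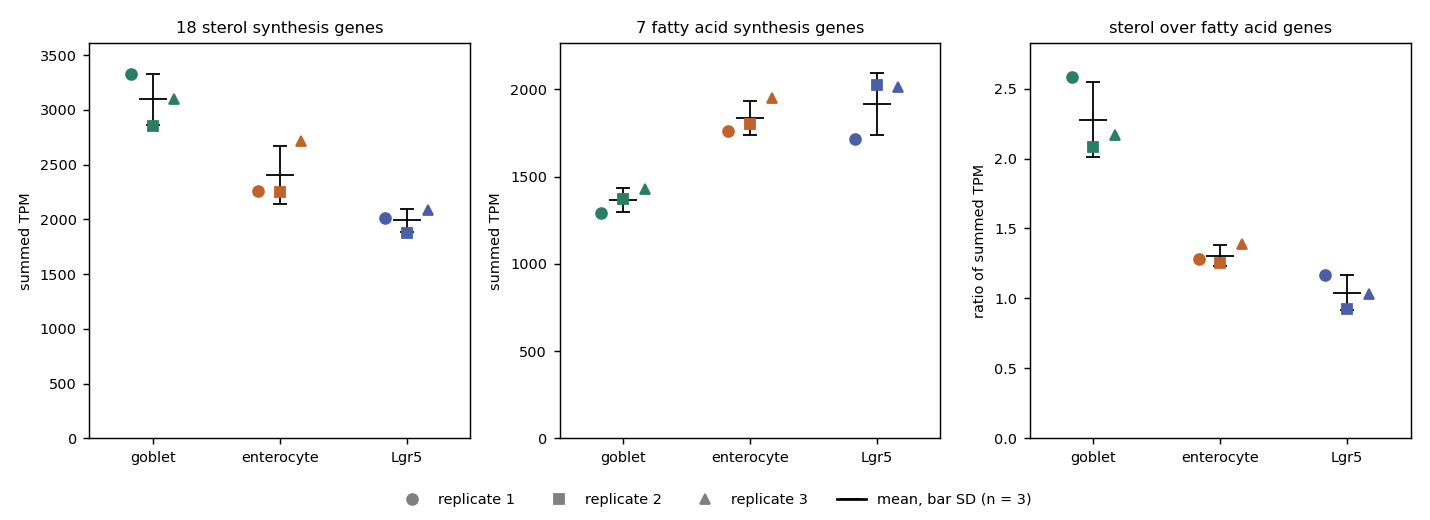
Summed TPM of the 18 sterol synthesis genes (left), summed TPM of the 7 fatty acid synthesis genes (middle) and their ratio within each library (right) in goblet-enriched, enterocyte-enriched and Lgr5-enriched libraries. Symbols are replicates 1 to 3 and bars the mean with the SD (n = 3), and the ratio is 2.08 to 2.58, 1.25 to 1.39 and 0.926 to 1.17 in the 3 populations.

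The members also varied with the replicate number. In 14 of 31, among them Srebf1, Srebf2, Scap, Acly, Acss2, Acaca and Fasn, replicate 1 was the lowest in all 3 populations, a pattern found in 23.0% of all tested genes. In 5 members, Fdps, Msmo1, Sc5d, Scd1 and Scd2, replicate 2 was the lowest in all 3 populations, against 8.87% of tested genes. Hmgcs1, Idi1, Cyp51, Insig1 and 8 others had their lowest value in different replicates.

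**Figure D4:**
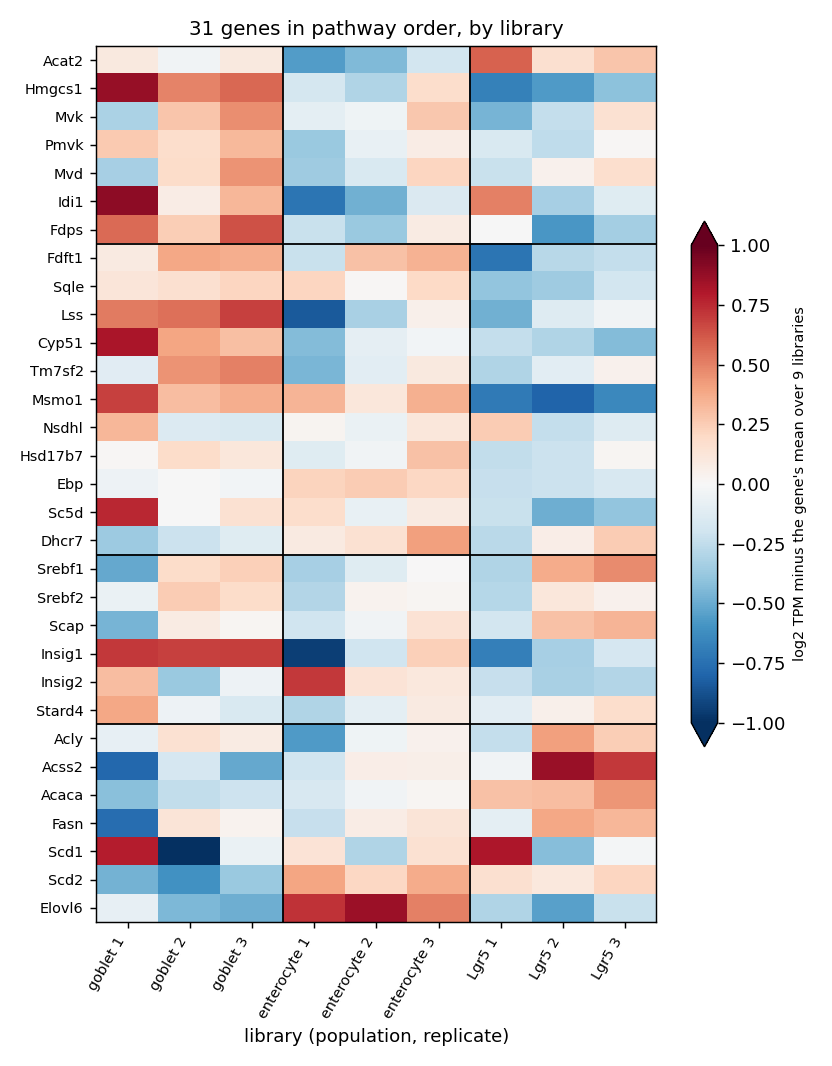
Log2 TPM of each gene (rows, in pathway order) minus its mean over the 9 libraries (columns: goblet-enriched, enterocyte-enriched and Lgr5-enriched replicates 1 to 3). Red is above and blue below the mean, the colour scale ends at 1 on either side, and the largest deviation is 1.07. Sterol genes are mostly red in the goblet-enriched columns, Acss2 and Acaca in the Lgr5-enriched columns and Elovl6 in the enterocyte-enriched columns.

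Some members overlap other genes in the annotation, and since strand use in counting is not given in the sources used here, their reads are uncertain to that extent. Fdft1 overlaps the abundant Ctsb by 774 bases and Acss2 overlaps Gss by 22544 bases, both on the opposite strand. Acaca overlaps Gm11437, Cyp51 overlaps Akap9, Srebf1 overlaps Rai1 and Lss overlaps 4930483K19Rik on the opposite strand, and Tm7sf2 overlaps Vps51 on the same strand. Fdps overlaps the protein-coding Gm43738 by 7512 bases on the same strand. Mvd overlaps Gm20388 by 9822 bases and Hmgcs1 overlaps Gm48342 by 6190 bases, both on the opposite strand. Gm43738, Gm20388 and Gm48342 have no row in the expression table.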

How the data were processed

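Poly-A RNA was sequenced in 9 libraries of 3 sorted populations with a stranded kit, single-end or paired-end on either of 2 instruments, per the labels, which do not tie instruments to libraries. The authors deposited log2 values per gene: columns sum to 1000000 once values of 0 and above are taken as powers of 2 and 1 is added to negative ones, so they are log2(TPM), or TPM minus 1 below 1 TPM. The submitters' processing notes name Cufflinks, without a version, and mm10. Aligner, annotation and strand setting were not given in the sources used here. Because TPM sets 1 total per library, an abundant transcript lowers all others. There were 0 per-sample columns left unused.

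Whole reads were recovered from the steps of the values for 18386 of 18396 genes above 0 (tolerance 1e-06 reads). A factor shared by all values of a gene cannot be seen, so reads and depth are lower bounds. In a 1 kb gene, 1 read equals 0.0958 to 0.208 TPM.

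log2(TPM + 1) was fitted with limma 3.58.1 in R 4.3.3 (trend, 1 mean per population, 9 libraries, 6 residual and 3.21 prior degrees of freedom) for the 12888 genes that reached 1 TPM in 3 or more libraries. Tests were two-sided, with Benjamini-Hochberg adjustment over all of these within a comparison. Fold changes on this scale understate changes of low genes. The script was tested on simulated data. P-values reflect how libraries of a population spread, through animals, batches or both. The 18 alternatives were another pseudocount (0.1), no filter, median-of-ratios and quantile scaling, only the libraries compared, array weights, a replicate block, leaving out each library or all replicates 1, and, added after seeing the data, limma-voom on recovered reads.

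The series text gives 3 mice for the replicates. Deviations from the population mean correlated at 0.19 to 0.60 in all 9 pairs of libraries with the same number and at -0.52 to 0.17 in the 18 others, so the numbers were taken as pairs for the block on these correlations alone. Deviations within a population sum to 0, so positive values in the first set force lower values in the second. The number does not stand for 1 animal in every population: enterocyte-enriched replicate 1 lacked Xist and held Y-linked transcripts, unlike the other libraries numbered 1.

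All 31 symbols were found in the gene name table and in GENCODE M21 (mm10). Promoters and sequences are from RefSeq (GRCm38.p6). Members, gene lists and tests were chosen with earlier results of these data known. All members are accounted for, and of the other lists at most 3 called genes per direction and comparison, those with the largest change, could be named.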

Additional observations from a re-analysis of the deposited data

How the results depend on the processing

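Over 18 alternatives, 8 of 12 members called in goblet-enriched against Lgr5-enriched, 4 of 9 in enterocyte-enriched against Lgr5-enriched and 6 of 10 in goblet-enriched against enterocyte-enriched kept their call in every one. Of single-member results, 1452 kept direction and side of the threshold, 74 lost the call and 67 gained it. In 78 others the member was called neither way and its sign changed, 18 of them with median-of-ratios scaling, which moved the members' median in goblet-enriched against enterocyte-enriched to -0.04, where the TPM scale gave 0.15. In 3 the sign changed where one of the values was called, all in enterocyte-enriched against Lgr5-enriched, for Acaca (0.01 with median-of-ratios scaling, 0.02 with quantile normalization) and Srebf2 (0.38 with median-of-ratios scaling); these scalings move the median of all genes, and the cause for these genes was not tested. Without the filter on low values, which adds genes to the adjustment, Hmgcs1, Fdft1 and Insig2 lost their calls in enterocyte-enriched against Lgr5-enriched (adjusted p 0.0593 to 0.063), as did Dhcr7 in goblet-enriched against enterocyte-enriched (0.0528, and 0.0772 with quantile normalization). In enterocyte-enriched against Lgr5-enriched, Hmgcs1 was also lost with quantile normalization (0.0816), Hmgcs1 and Fdft1 with only the 6 libraries compared (0.0515 and 0.0639) and Acaca with limma-voom (0.0967). Members called in enterocyte-enriched against Lgr5-enriched numbered 15 with median-of-ratios scaling, 14 with array weights and 14 without all replicates 1. The members gained with median-of-ratios scaling, all higher, were Mvk, Pmvk, Cyp51, Hsd17b7, Sc5d, Dhcr7, Srebf2 and Scd2. Leaving out 1 library gave 10 to 13 called members in goblet-enriched against Lgr5-enriched, 5 to 10 in enterocyte-enriched against Lgr5-enriched and 6 to 10 in goblet-enriched against enterocyte-enriched. Over all genes, goblet-enriched against Lgr5-enriched had 7611 calls with array weights and 2646 to 5592 with 1 library or all replicates 1 left out, fewest without Lgr5-enriched replicate 3. The replicate block gave 15, 13 and 14 called members in the 3 comparisons and changed no call of a member other than those given with it above. With 3 libraries a population, a call that is missed does not show that levels are equal. Depth was not limiting for the members, at 277 reads or more.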

Other observations

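Lbr, a reductase of the sterol ring and lamin receptor outside the 31 genes, was lower in enterocyte-enriched than in Lgr5-enriched cells (limma log2 fold change -1.46 ± 0.16 SE, adjusted p = 0.000248).

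Of 15 genes of SREBP transport, cleavage and turnover, 3 were higher and 1 lower in goblet-enriched than in Lgr5-enriched cells, where 10.7% of all tested genes were higher and 23.6% lower. The 3 higher genes, Sec24d, Sec24a and Sar1a, encode parts of the COPII coat that carries Scap and many other cargoes out of the endoplasmic reticulum. Other coat genes of the list were not called in that comparison. Among them was Sec23a, which was lower in goblet-enriched than in enterocyte-enriched cells (-0.73 ± 0.19, adjusted p = 0.0133). Sec24d had 234, 158 and 164 TPM in goblet-enriched, 39.1, 34.4 and 45.3 TPM in enterocyte-enriched and 48.5, 47.2 and 44.5 TPM in Lgr5-enriched libraries (1.94 ± 0.17 against Lgr5-enriched cells, adjusted p = 7.12e-05). The lower gene, Rnf145, a ubiquitin ligase of sterol feedback, had 26.9, 23.4 and 24.0 TPM in goblet-enriched, 54.2, 41.4 and 42.8 TPM in enterocyte-enriched and 72.8, 53.1 and 57.9 TPM in Lgr5-enriched libraries (-1.26 ± 0.16 against Lgr5-enriched cells, adjusted p = 0.000551). In enterocyte-enriched against Lgr5-enriched cells 1 gene of this list was higher and 5 were lower (12.0% and 37.6% of tested genes, so the lower count is near that share), among them Mbtps1, the first SREBP protease in the Golgi (-0.81 ± 0.14, adjusted p = 0.00149).

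Of 19 tested genes of sterol uptake, storage and efflux, 5 were higher and 5 lower in goblet-enriched than in enterocyte-enriched cells, where 28.2% of tested genes were higher and 15.9% lower. Soat1, which esterifies cholesterol, was higher in goblet-enriched than in enterocyte-enriched cells (1.49 ± 0.16, adjusted p = 0.000153). Its means were 56.7, 19.8 and 52.8 TPM in goblet-enriched, enterocyte-enriched and Lgr5-enriched libraries. Enterocyte-enriched cells were also below Lgr5-enriched cells in Soat1 (-1.39 ± 0.16, adjusted p = 0.000282). Lipa, the lysosomal lipase that frees cholesterol, had 5.84, 3.06 and 4.10 TPM in goblet-enriched, 41.5, 18.2 and 19.1 TPM in enterocyte-enriched and 5.00, 5.42 and 5.85 TPM in Lgr5-enriched libraries (-2.28 ± 0.32 for goblet-enriched against enterocyte-enriched cells, adjusted p = 0.000549).

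Of 19 tested genes of fatty acid synthesis, elongation and desaturation outside the 31, none was higher and 5 were lower in goblet-enriched than in Lgr5-enriched cells, near the shares of 10.7% and 23.6% over tested genes. Mlxipl, which encodes the carbohydrate response factor ChREBP, had 12.9, 27.2 and 31.1 TPM in goblet-enriched, 9.41, 16.9 and 23.9 TPM in enterocyte-enriched and 62.1, 114 and 112 TPM in Lgr5-enriched libraries, lower in goblet-enriched (-2.01 ± 0.41, adjusted p = 0.00575) and in enterocyte-enriched cells (-2.49 ± 0.41, adjusted p = 0.00116). Fads1, a desaturase of polyunsaturated fatty acids, was lower in enterocyte-enriched than in Lgr5-enriched cells (-3.41 ± 0.62, adjusted p = 0.00194), with 10, 1.51 and 8.16 TPM against 116, 34.0 and 73.3 TPM. Of 18 tested genes of acyl-CoA activation and glycerolipid assembly, 5 were higher and 6 lower in goblet-enriched than in enterocyte-enriched cells (28.2% and 15.9% of tested genes). Agpat4, an acyltransferase of glycerolipid synthesis, had 14.3, 17.0 and 20.6 TPM in goblet-enriched, 176, 150 and 138 TPM in enterocyte-enriched and 28.3, 52.8 and 44.9 TPM in Lgr5-enriched libraries (-3.10 ± 0.23 for goblet-enriched against enterocyte-enriched cells, adjusted p = 4.12e-05), and Acsl1, an acyl-CoA synthetase, was higher in goblet-enriched cells (2.05 ± 0.22, adjusted p = 0.000146).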
